A study of Caenorhabditis elegans with 10 samples.

Results

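The genes described here encode the proteins that activate, oxidise and bind fatty acids in Caenorhabditis elegans. They were chosen by name as the protein-coding genes whose symbol begins with acs, cpt, acdh, ech, acox, lbp or far, leaving out those that start between 2 and 4 Mb on chromosome V. The rule found 72 genes, each present among the 19177 genes of the 8 h table and the 21915 genes of the 24 h table. By family there were 20 acs, 6 cpt, 13 acdh, 10 ech, 7 acox, 8 lbp and 8 far genes. The rule left out acs-21 and lbp-9 for their position and the pseudogene acs-23.

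Messenger RNA of whole worms was sequenced from 2 strains. GMC101 carries human Aβ1-42 under the unc-54 promoter, which is active in body wall muscle, together with an intestinal GFP marker under the mtl-2 promoter. CL2122, the control, carries the empty unc-54 vector and the same mtl-2 GFP marker. Per the study's methods, synchronized worms of both strains were raised at 20 °C to young adulthood and then held at 25 °C for 8 h or 24 h, whereas the labels give the stage as L1. Both strains received the same temperature shift, and no unshifted group was used here. Per the labels each strain had 2 samples at 8 h and 3 at 24 h, but each deposited table holds a single value per gene and strain, given by the authors. There is therefore no replicate error and no test between the strains. A difference in a single pair of values cannot be told apart from the variation between cultures.

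Fatty acids are first joined to coenzyme A by acyl-CoA synthetases, the acs genes. Carnitine palmitoyltransferases, the cpt genes, move long-chain acyl groups into mitochondria. There acyl-CoA dehydrogenases (acdh) and enoyl-CoA hydratases (ech) carry out the opening steps of β-oxidation, while acyl-CoA oxidases (acox) start the peroxisomal pathway that also shortens the side chains of ascaroside pheromones. Fatty acid binding proteins (lbp) and the nematode-specific fatty acid and retinol binding proteins (far) carry the lipids themselves. In the worm much of this metabolism takes place in the intestine, the main fat store, and in the hypodermis.

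The 4 columns of values, 1 per strain and time, are called libraries here. Each stands for 2 or 3 labelled samples, and whether it is a pool or a single sequenced library is not given. They held between 20533034 and 25283084 reads on genes, so that 3 reads corresponded to 0.119 to 0.146 CPM (counts per 1000000 reads on genes). Values are given as normalized counts, which the authors scaled by a single factor per column. A read counted 1.035 in GMC101 and 0.966 in CL2122 at 8 h, and 1.054 and 0.949 at 24 h. These factors do not make the column totals equal, so total-count scaling gives other fold changes. Fold changes are GMC101 over CL2122 on the log2 scale after adding 0.5 normalized counts to each value, which understates the change of low genes. A gene was tested against a 2-fold difference where its mean over both strains was at least 20 normalized counts. The brackets after a log2 value hold its 95% Clopper-Pearson counting interval, computed from the recovered reads, and cover counting error only. Levels between genes or times are given as RPKM, which is CPM per kilobase of gene length. The 2 tables were normalized separately, and the labels do not say whether both times were prepared and sequenced together.

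At 24 h most of the fatty acid genes that differed by more than 2-fold were higher in GMC101. Of 70 members tested, 13 were more than 2-fold higher (18.6%), against 7.94% of all 14488 genes tested, and 2 were more than 2-fold lower (2.86%), against 11% of all genes. The higher genes were acdh-1, acdh-2, acdh-5, acdh-8, acox-1.3, acox-1.4, acs-6, acs-10, acs-18, cpt-3, ech-6, far-3 and lbp-6, and the lower genes were cpt-6 and ech-9. With both libraries scaled to their total reads on genes instead, all genes shifted down to a median of −0.18, the background became 6.28% higher and 14.9% lower, and the members counted 12 higher and 3 lower, cpt-3 leaving the higher and far-6 (−0.90 as deposited) joining the lower. The median over the members was 0.16, with a range from −1.65 to 7.92, beside a median of 0.0091 over all genes tested. Acyl-CoA dehydrogenases stood highest by count, with 4 of 12 tested past 2-fold.

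At 8 h few members differed by more than 2-fold. Of 67 members tested, ech-9 alone was more than 2-fold higher (1.49%), against 1.39% of all 13493 genes tested, and acs-3 alone was more than 2-fold lower (1.49%), against 3.34%. The median over the members was −0.10, with 24 above 0 and 43 below, beside 0.0048 over all genes tested. At this time 5 members were under the minimum level, namely acdh-6, acs-9, cpt-3, far-4 and lbp-8. At 24 h acdh-6 and lbp-8 were under it.

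**Figure D1:**
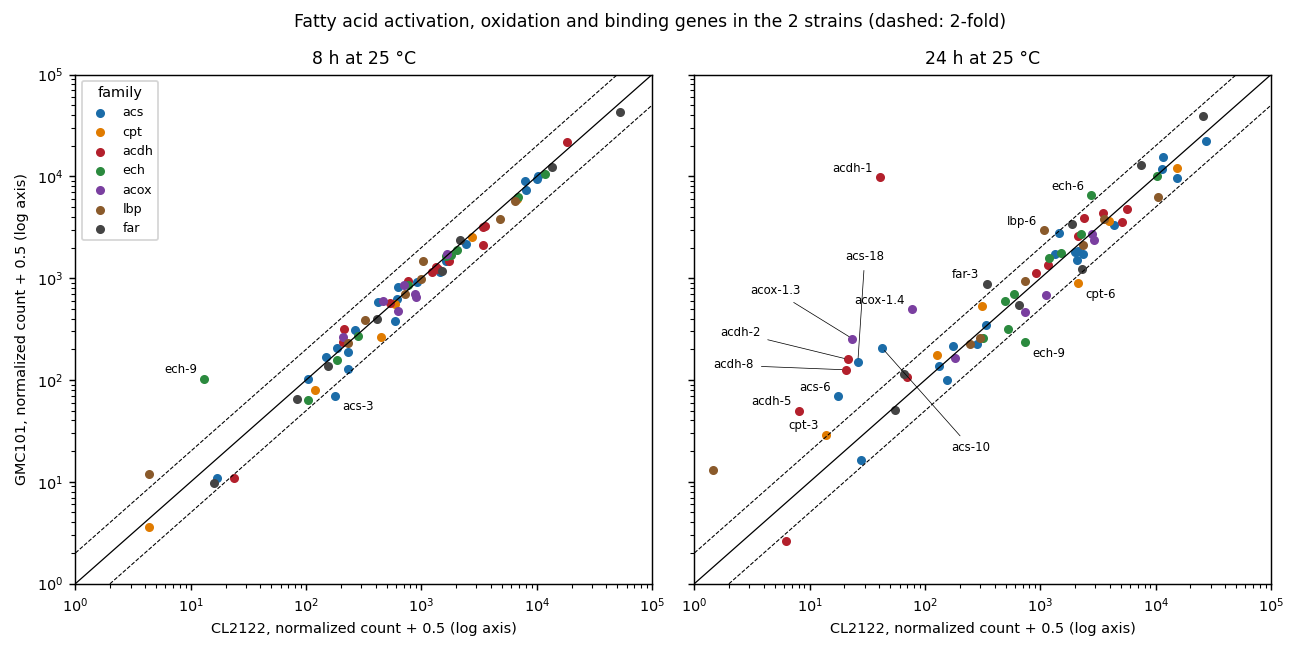
Normalized count plus 0.5 in CL2122 (x axis, log scale) against GMC101 (y axis, log scale) for the 72 members, 8 h on the left and 24 h on the right, with 1 point per gene coloured by family. The solid line marks equal values and the dashed lines a 2-fold difference. At 8 h ech-9 and acs-3 are the labelled genes, and at 24 h 13 labelled genes lie above the band and 2 below it. Unlabelled points outside the band are under the minimum level.

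The acyl-CoA synthetases that were more than 2-fold higher at 24 h were weakly expressed at that time. acs-10 (WBGene00007082, V:14146499-14148784) had 826 normalized counts in GMC101 against 626 in CL2122 at 8 h, and 207 and 41.8 at 24 h. Its log2 fold change was 0.40 [0.25, 0.55] at 8 h and 2.29 [1.83, 2.81] at 24 h. acs-18 (IV:10310772-10313670) had 583 and 418 normalized counts in GMC101 and CL2122 at 8 h, and 151 and 25.6 at 24 h, with log2 fold changes of 0.48 [0.30, 0.66] and 2.53 [1.95, 3.21]. Both genes were thus higher in GMC101 at either time, past 2-fold at 24 h. acs-6 (II:7061999-7064777) had 311 and 263 normalized counts at 8 h and 68.5 and 17.1 at 24 h, a log2 fold change of 0.24 [−0.00063, 0.48] and then 1.97 [1.23, 2.84]. At 24 h these 3 genes had 1.39 to 4.38 RPKM in GMC101 and 0.397 to 1.01 RPKM in CL2122.

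The synthetases strongly expressed at 24 h differed by less than 2-fold. So did weakly expressed ones at 24 h, such as acs-12 (−0.33) and acs-20 (0.06). acs-19, an acetyl-CoA synthetase and the highest acs gene per length over the 4 libraries, had 9418 and 10061 normalized counts in GMC101 and CL2122 at 8 h, and 22486 and 27232 at 24 h. Its log2 fold changes were −0.10 [−0.14, −0.05] and −0.28 [−0.30, −0.25]. acs-2, a mitochondrial synthetase that fasting induces through the nuclear receptor NHR-49, had 169 and 149 normalized counts at 8 h and 9730 and 15255 at 24 h. It was level within counting error at 8 h (0.18 [−0.15, 0.51]) and lower in GMC101 at 24 h, short of 2-fold (−0.65 [−0.69, −0.61]). Per length, acs-2 was 46.0-fold higher at 24 h than at 8 h in GMC101 and 95.6-fold higher in CL2122, reaching 176 and 315 RPKM. acs-1, which activates branched-chain fatty acids, was just inside the 2-fold band at 24 h (0.94 [0.85, 1.03]). Of the 20 acs genes at 24 h, 10 were above 0 and 10 below, or 7 and 13 with total-count scaling.

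acs-3, an acyl-CoA synthetase that acts in the seam cells of the hypodermis, was the only member more than 2-fold lower at 8 h. It had 69.4 normalized counts in GMC101 against 176 in CL2122 at 8 h, and 138 and 132 at 24 h. The log2 fold change was −1.34 [−1.77, −0.93] at 8 h, an interval that reaches inside the 2-fold band, and 0.06 [−0.29, 0.42] at 24 h. The gene lies at V:1969528-1974514 and ends 25486 bases before the stretch of chromosome V that the rule leaves out. Within that stretch 123 of 207 genes tested (59.4%) were more than 2-fold lower in GMC101 at 8 h and none higher, and 151 of 244 (61.9%) were lower at 24 h and 9 higher. The part of this position in the acs-3 value was not tested. Of the hypodermis markers, 3 of 6 (dpy-7, col-10 and rol-6) were also more than 2-fold lower at 8 h, with a list median of −1.07. In that list 5 markers were below 0 and 1 above, col-19 at 0.03. Their sums were 2230 CPM in GMC101 and 2184 CPM in CL2122. The part of the hypodermis in the acs-3 value was not tested either. Of the genes left out for their position, acs-21 had log2 fold changes of −0.68 at 8 h and −1.16 at 24 h, and lbp-9 had −0.43 and 0.32.

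Among the carnitine palmitoyltransferases, cpt-6 and cpt-3 lay on opposite sides at 24 h. cpt-6 (WBGene00020911, V:6490068-6493921) had 262 normalized counts in GMC101 against 443 in CL2122 at 8 h, and 888 and 2125 at 24 h. It was lower in GMC101 at both times, by −0.76 [−0.99, −0.54] and by −1.26 [−1.37, −1.14]. cpt-3 had 3 and 4 reads at 8 h, too few for a comparison, and 28.5 and 13.3 normalized counts at 24 h (1.07 [0.12, 2.14]). The cpt-3 difference lay just past 2-fold and fell inside it with total-count scaling (0.88) or with 5 normalized counts added instead of 0.5 (0.87).

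cpt-1, which loads long-chain acyl groups onto carnitine, and cpt-2, which returns them to coenzyme A inside mitochondria, differed by less than 2-fold. cpt-1 had 5964 and 6784 normalized counts in GMC101 and CL2122 at 8 h, and 12132 and 15232 at 24 h, with log2 fold changes of −0.19 [−0.24, −0.14] and −0.33 [−0.36, −0.29]. It was the highest cpt gene per length in every library, with 58.1% to 65.3% of the family's summed RPKM. cpt-2 had −0.11 at both times. cpt-4 and cpt-5 were above 0 at 24 h, at 0.48 and 0.77.

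acdh-1 gave the largest difference of all members. It encodes the acyl-CoA dehydrogenase that opens the propionate shunt, a route of propionate breakdown that runs when vitamin B12 is scarce, and its transcription is known to fall on a diet rich in that vitamin. The gene (WBGene00016943, I:6497436-6499560) had 21913 normalized counts in GMC101 against 18398 in CL2122 at 8 h, and 9770 and 39.9 at 24 h, the last from 42 reads. The log2 fold change was 0.25 [0.22, 0.28] at 8 h and 7.92 [7.50, 8.41] at 24 h, a 242-fold difference. Per length, GMC101 had 712 RPKM at 8 h and 253 RPKM at 24 h, 2.81-fold less, and CL2122 had 584 RPKM and 1.18 RPKM, 495-fold less. The 24 h strain difference and the time ratio of CL2122 share the CL2122 value at 24 h.

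A further 3 dehydrogenases were more than 2-fold higher in GMC101 at 24 h, when their levels were low. acdh-2, a close relative of acdh-1, had 567 and 528 normalized counts in GMC101 and CL2122 at 8 h, and 159 and 20.9 at 24 h (0.10 [−0.07, 0.28] and 2.90 [2.28, 3.65]). acdh-8, of the medium-chain type, had 940 and 771 at 8 h, and 125 and 19.9 at 24 h (0.29 [0.15, 0.42] and 2.62 [1.98, 3.40]). acdh-5 had 233 and 210 at 8 h, and 49.5 and 7.59 at 24 h (0.15 [−0.12, 0.43] and 2.63 [1.61, 3.998]). At 8 h these genes were within 2-fold between the strains, and at 24 h their levels were lower than at 8 h in both strains. acdh-2 (II:5544781-5547490) shares 84 exon bases with ins-13 on the same strand in the WBcel235 annotation, and its reads there may be split.

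The other 8 dehydrogenases tested at 24 h stayed inside 2-fold. acdh-3 was highest among them at 0.73 [0.66, 0.81], and acdh-11, which acts in heat adaptation, had 0.29 [0.20, 0.37]. acdh-10 and acdh-7, medium-chain types that lie 88 bases apart on chromosome X, were the ones below 0, at −0.24 and −0.51. Summed over the family, normalized counts were 31952 in GMC101 and 21017 in CL2122 at 24 h (0.60). Without acdh-1 the sums were 22182 and 20977 (0.081), a difference that lay on the other side of 0 with total-count scaling (−0.11). acdh-1 itself gave 32.6% of the family's RPKM in GMC101 and 0.202% in CL2122 at 24 h, against 60.4% and 52.9% at 8 h.

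**Figure D2:**
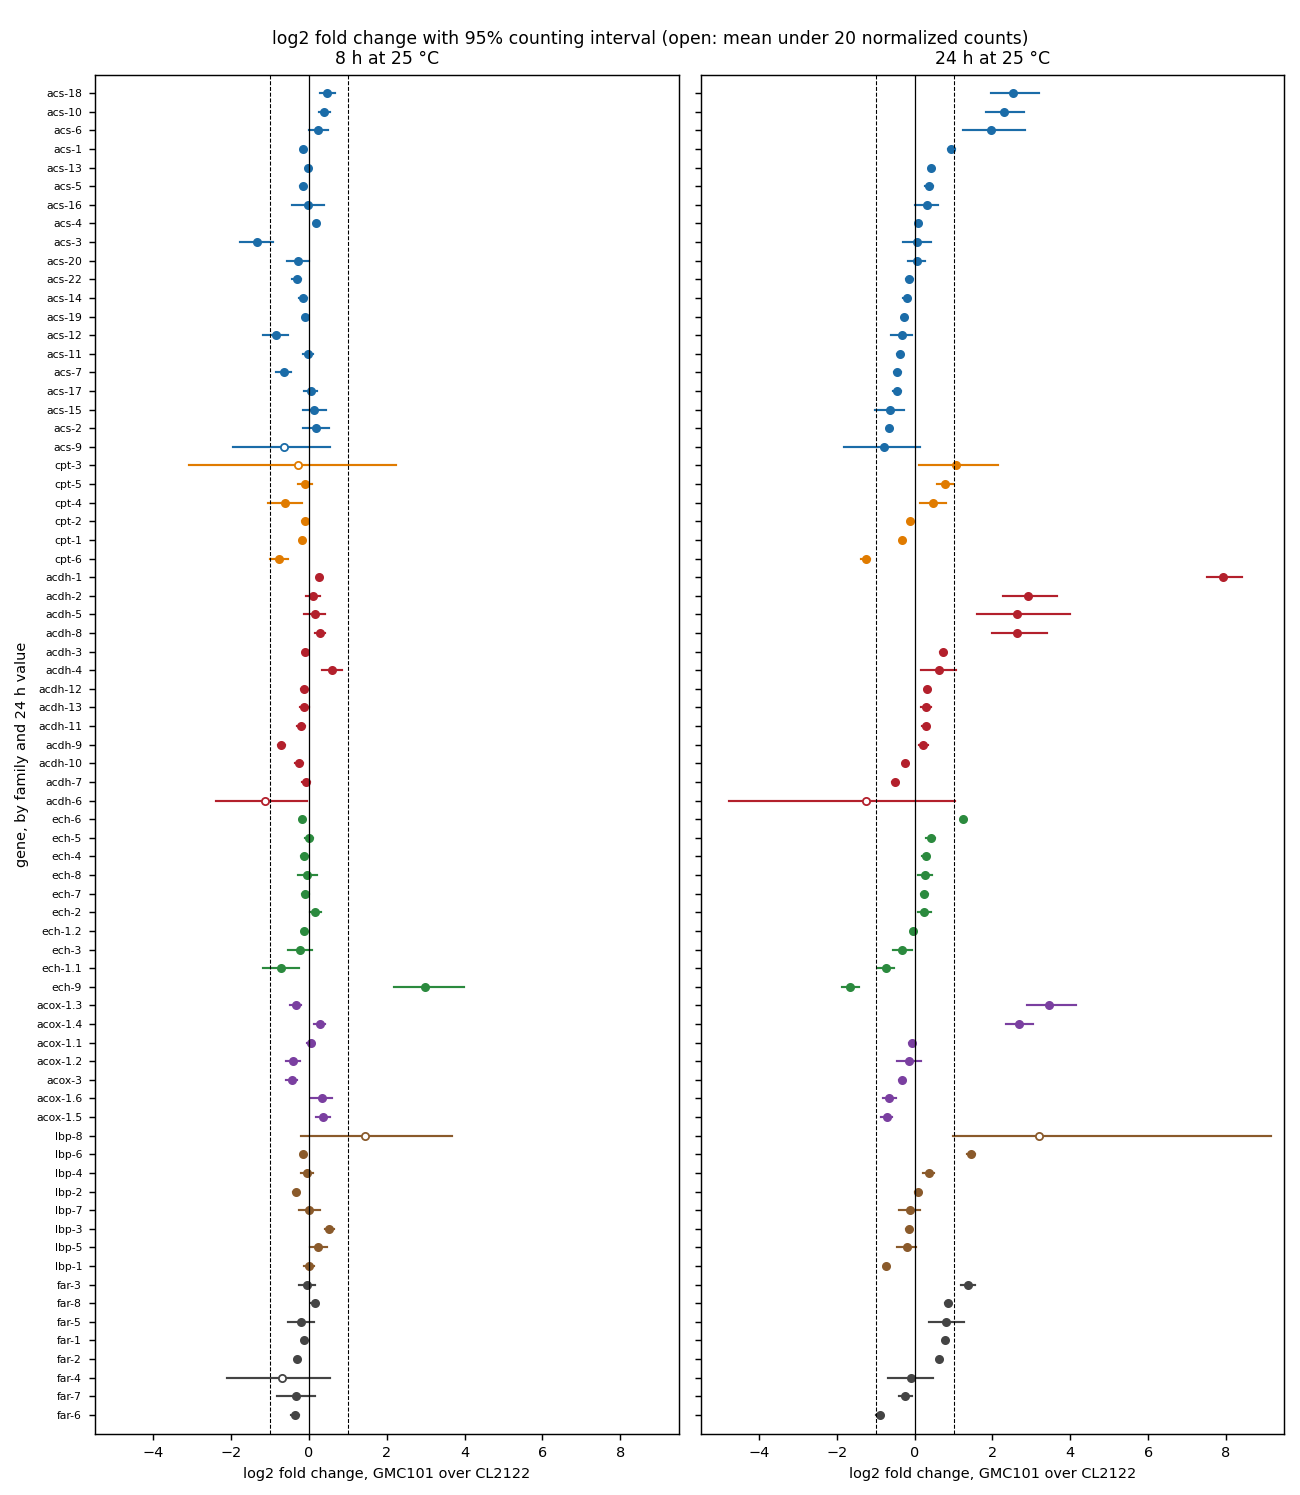
log2 fold change of GMC101 over CL2122 (x axis) for each of the 72 members (y axis, by family and ordered by the 24 h value), at 8 h on the left and 24 h on the right. Bars are 95% counting intervals, dashed lines mark 2-fold, and open symbols are genes under a mean of 20 normalized counts. acdh-1 at 7.92 stands apart at 24 h, and ech-9 is at 2.98 at 8 h and at −1.65 at 24 h.

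Of the enoyl-CoA hydratases, ech-6 was higher and ech-9 lower at 24 h. ech-6, the short-chain hydratase that follows acdh-1 in the propionate shunt, had 10451 normalized counts in GMC101 against 11769 in CL2122 at 8 h, and 6557 and 2760 at 24 h. Its log2 fold change was −0.17 [−0.21, −0.13] at 8 h and 1.25 [1.18, 1.31] at 24 h. ech-6 (III:9751440-9752922) was the highest ech gene per length over the 4 libraries, with 421 and 464 RPKM in GMC101 and CL2122 at 8 h, and 211 and 101.4 RPKM at 24 h.

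ech-9 was past 2-fold in opposite directions at the 2 times. It had 102 normalized counts in GMC101 against 12.6 in CL2122 at 8 h (99 and 13 reads), and 234 and 737 at 24 h. The log2 fold change was 2.98 [2.19, 3.99] at 8 h, 7.89-fold higher, and −1.65 [−1.88, −1.44] at 24 h, 3.14-fold lower. Per length the gene stood at 2.94 RPKM at 8 h and 5.36 RPKM at 24 h in GMC101, and at 0.352 and 19.3 RPKM in CL2122. The low value was that of CL2122 at 8 h, and the highest that of CL2122 at 24 h. ech-9 (WBGene00001158, IV:10233321-10235329) lies 1296 bases from ech-8 on the same strand, and ech-8 had −0.04 [−0.29, 0.20] at 8 h and 0.26 [0.09, 0.43] at 24 h. The neighbouring hydratase gene was thus within 2-fold at both times.

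The remaining 8 hydratases were inside 2-fold at both times. ech-1.2, which encodes the α subunit of the mitochondrial trifunctional protein, was at −0.13 and −0.03, and its relative ech-1.1 was at −0.71 and −0.72. ech-4, which also carries an acyl-CoA binding domain, was at −0.11 and 0.28.

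In the peroxisomal branch, 2 of 7 acyl-CoA oxidases were higher at 24 h. acox-1.3 (WBGene00008566, I:12946937-12950991) had 691 normalized counts in GMC101 against 874 in CL2122 at 8 h, and 255 and 22.8 at 24 h. Its log2 fold change was −0.34 [−0.48, −0.19] at 8 h and 3.46 [2.88, 4.15] at 24 h. acox-1.4 (I:12951025-12954015) had 847 and 699 at 8 h, and 497 and 76.9 at 24 h (0.28 [0.13, 0.42] and 2.69 [2.35, 3.05]). Both encode oxidases of the ascaroside side chain.

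These 2 genes belong to a tandem row of 4 on chromosome I, with gaps of 55, 374 and 33 bases, and the row divided between them. acox-1.1 had 1730 and 1678 normalized counts in GMC101 and CL2122 at 8 h, and 2695 and 2828 at 24 h (0.04 [−0.05, 0.14] and −0.07 [−0.15, 0.01]). acox-1.2 had −0.40 at 8 h and −0.14 [−0.46, 0.17] at 24 h. With total-count scaling acox-1.1 lay at −0.26 [−0.34, −0.18] at 24 h. The pair at one end of the row was thus within 2-fold at 24 h and the pair at the other end past it. How the authors' counting shared reads between these related neighbours is not given in the sources used here. Elsewhere, acox-1.5, acox-1.6 and acox-3 were below 0 at 24 h, at −0.71, −0.65 and −0.31. acox-1.1 was the highest acox gene per length over the 4 libraries, with 36.1 to 56.7 RPKM.

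The intracellular fatty acid binding protein gene lbp-6 was higher at 24 h. It had 5785 normalized counts in GMC101 against 6419 in CL2122 at 8 h, and 2947 and 1078 at 24 h (−0.15 [−0.20, −0.10] and 1.45 [1.35, 1.55]). lbp-6 was the highest lbp gene per length over the 4 libraries and the leading one at 8 h, at 511 and 554 RPKM. At 24 h its level was 208 RPKM in GMC101 and 86.7 in CL2122, and lbp-1 led the family with 38.6% and 58.2% of its summed RPKM. Its neighbour lbp-5, whose product works with NHR-49 and which lies 1890 bases away, had 0.24 [0.02, 0.45] and −0.20 [−0.45, 0.04].

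Of the other binding protein genes, lbp-1 was lower in GMC101 at 24 h, short of 2-fold (−0.73 [−0.78, −0.69]). Its neighbours in a row on chromosome X, lbp-3 and lbp-2, were at −0.14 and 0.09, the latter below 0 with total-count scaling. lbp-8, which carries a lipid signal from the lysosome to the nucleus, was barely detected, with 11 and 4 reads in GMC101 and CL2122 at 8 h, and 12 and 1 at 24 h. The log2 intervals were [−0.20, 3.67] and [0.98, 9.15], and no difference in lbp-8 was detectable at 8 h at this depth.

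Of the 8 fatty acid and retinol binding genes, 5 lay above 0 at 24 h under each scaling run, with far-3 past 2-fold. far-3 (V:12996787-12997524) had 400 normalized counts in GMC101 against 412 in CL2122 at 8 h, and 882 and 341 at 24 h (−0.04 [−0.25, 0.16] and 1.37 [1.19, 1.55]). far-2 was the highest member per length in every library, with 2645 and 3169 RPKM in GMC101 and CL2122 at 8 h, and 1953 and 1440 RPKM at 24 h. Its 42775 and 52464 normalized counts at 8 h and 39584 and 25579 at 24 h gave log2 fold changes of −0.29 [−0.31, −0.28] and 0.63 [0.61, 0.65]. far-1, far-5 and far-8 lay at 0.78, 0.81 and 0.85 at 24 h, and far-6 at −0.90 [−1.004, −0.80]. far-1 and far-2 lie head to head, 499 bases apart, and were both below 0 at 8 h and above it at 24 h. far-3 shares 50 bases with far-5 on the opposite strand, and whether the authors' counting used strand is not given in the sources used here.

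Across the 7 families, medians at 24 h were 0.71 for far, 0.47 for acdh, 0.25 for ech, 0.19 for cpt, −0.04 for acs, −0.13 for lbp and −0.14 for acox. With total-count scaling all were about 0.19 lower, and the cpt median lay below 0 at −0.0053. At 8 h the medians ran from −0.20 for far to 0.04 for acox. All genes tested spread likewise, with quartiles of −0.15 and 0.15 at 8 h and −0.45 and 0.36 at 24 h.

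The genes of the propionate shunt, listed with earlier results of these data known, lay above 0 at 24 h. Of its 5 genes, 3 were more than 2-fold higher (acdh-1, hphd-1 and ech-6), all 5 were above 0 under each of the scalings run, and the median was 1.25, or 1.06 with total-count scaling. hphd-1, the dehydrogenase of the later hydroxypropionate step, had 7042 normalized counts in GMC101 against 8011 in CL2122 at 8 h, and 2909 and 579 at 24 h (−0.19 [−0.23, −0.14] and 2.33 [2.202, 2.46]). hach-1, the hydrolase between ech-6 and hphd-1, was at 0.56 and alh-8, the last step, at 0.25. At 8 h none of the 5 was past 2-fold, acdh-1 was above 0 and the other 4 below.

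A list of 8 genes covered the vitamin B12-dependent routes of canonical propionate breakdown and methionine synthesis, in which not every step uses the vitamin. Of these, metr-1, the methionine synthase, was more than 2-fold higher at 24 h (11787 against 4806 normalized counts, 1.29 [1.25, 1.34]), and mtrr-1, its reductase, was at 0.70. The propionyl-CoA carboxylase genes pcca-1 and pccb-1 were both at −0.16, and the list median was 0.34. None of the 8 was past 2-fold at 8 h.

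**Figure D3:**
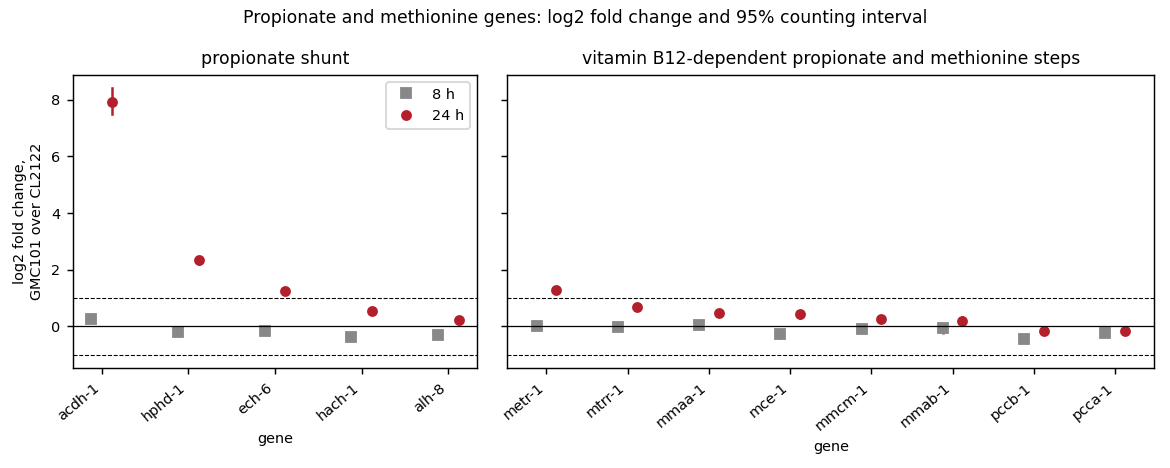
log2 fold change of GMC101 over CL2122 (y axis) for the 5 genes of the propionate shunt on the left and 8 genes of vitamin B12-dependent propionate breakdown and methionine synthesis on the right, with squares for 8 h and circles for 24 h. Bars are 95% counting intervals, hidden by the symbol where short, and dashed lines mark 2-fold. At 24 h acdh-1, hphd-1, ech-6 and metr-1 lie above the upper dashed line, and no gene crosses either line at 8 h.

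Regulators of these pathways were mixed at 24 h. Of 12 listed, 2 were more than 2-fold higher and 1 lower. nhr-68, a nuclear receptor that activates the shunt, had 954 normalized counts in GMC101 against 352 in CL2122 (1.44 [1.26, 1.62]). nhr-10, its partner in that role, was lower without passing 2-fold (−0.32 [−0.47, −0.17]). nhr-114, a receptor that controls genes of the methionine cycle, had 1004 and 317 (1.66 [1.48, 1.85]). nhr-25, a receptor of hypodermal development, had 304 and 660 (−1.11 [−1.32, −0.92]), and nhr-49, the regulator of fasting-induced β-oxidation genes such as acs-2, was at −0.17 [−0.23, −0.11]. None of the 12 was past 2-fold at 8 h.

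Most other related lists held few genes past 2-fold. Among 16 peroxisomal transporter and assembly genes at 24 h, pmp-5, an ABC transporter gene, had 2401 normalized counts in GMC101 against 81.6 in CL2122 (4.87 [4.57, 5.21]), and prx-1 had 227 and 479 (−1.08 [−1.32, −0.85]). At 8 h pmp-5 had 4953 and 4109 (0.27). None of the 3 later peroxisomal steps (maoc-1, dhs-28 and daf-22), the 8 thiolase and hydroxyacyl-CoA dehydrogenase genes, the 4 fatty acid synthesis genes or the acyl-CoA binding protein genes was past 2-fold at either time, although the acyl-CoA binding list had a median of 0.76 at 24 h over its 5 tested genes. Of the lipases, lipl-2 was lower at 8 h on 9 reads against 45 (−2.16 [−3.44, −1.17]), and none of 7 tested was past 2-fold at 24 h.

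**Figure D4:**
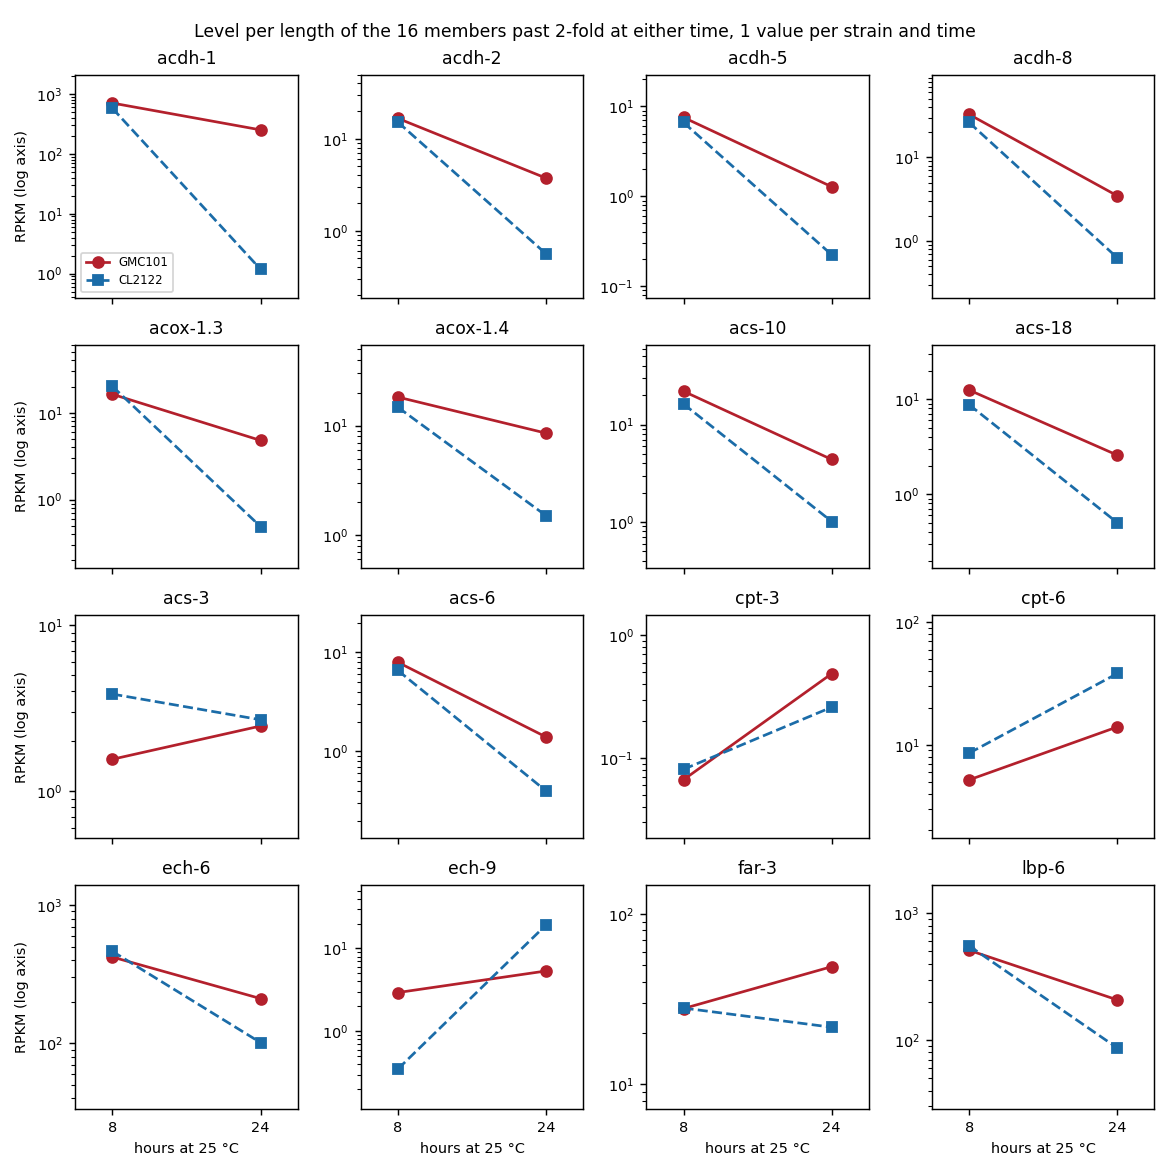
RPKM (y axis, log scale, range set per gene) against hours at 25 °C (x axis) for the 16 members past 2-fold at either time, with circles for GMC101 and squares for CL2122, each a single value. The lines join values of a strain and are no measured time course. In 8 low or moderate genes (acdh-2, acdh-5, acdh-8, acox-1.3, acox-1.4, acs-6, acs-10 and acs-18) and in acdh-1, ech-6 and lbp-6 both strains are lower at 24 h than at 8 h, with CL2122 the lower of the strains at 24 h.

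Levels over time were compared for genes tested at both times. Of the 1085 genes higher in GMC101 at 24 h, 81.1% were more than 2-fold lower at 24 h than at 8 h in CL2122. In GMC101 the share was 54.8%. Over all 12638 genes the shares were 12.5% in CL2122 and 10.1% in GMC101. The strain difference at 24 h and these time ratios share their 24 h values, so the members' values are given side by side and nothing is read from them together. From 8 h to 24 h acox-1.3 went from 16.3 to 4.80 RPKM in GMC101 and from 20.2 to 0.490 in CL2122, acox-1.4 from 18.2 to 8.52 and from 14.7 to 1.504, and acs-10 from 21.96 to 4.38 and from 16.3 to 1.01. far-3 and cpt-3 went otherwise, with far-3 at 27.9 and 49.04 RPKM in GMC101 and at 28.02 and 21.6 in CL2122. cpt-6, lower in GMC101, went from 5.17 to 13.99 RPKM in GMC101 and from 8.55 to 38.2 in CL2122.

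Markers of several tissues also differed between the strains at 24 h, and in whole worms fewer cells of a type and less RNA per cell cannot be told apart. Body wall muscle markers were more than 2-fold higher in GMC101 in 6 of 8 cases, with all 8 above 0 and a median of 1.21. Their summed levels were 3712 and 1843 CPM in GMC101 and CL2122, to which unc-54 gave most, at 54530 and 24168 normalized counts. Both strains carry unc-54 sequence in their transgenes, and the part of transgene reads in the unc-54 value was not tested. Of the intestine markers, act-5 and vha-6 among 6 found were more than 2-fold higher. Of these 6 markers, 3 were above 0 and 3 below, with a median of 0.48 and sums of 712 and 325 CPM. Sperm markers were more than 2-fold higher in 5 of 7 tested and below 0 in 2, with a median of 2.88. Their sums were 38.1 and 8.79 CPM, and spe-38, under the minimum level, was at 0 reads in CL2122. Germline and oocyte markers were above 0 in 11 of 12, none past 2-fold, with a median of 0.68 and sums of 10367 and 7498 CPM. Hypodermis markers were divided, with col-19 and col-10 higher and rol-6 lower among 5 tested. Of the 5, 2 were above 0 and 3 below, with a median of −0.75. Their sums were 674 and 165 CPM, to which col-19 gave most, at 16411 and 1373 normalized counts. At 8 h no muscle, intestine, germline or sperm marker was past 2-fold, with list medians of −0.23, 0.02, 0.09 and 0.46. The part of these tissues in the values of the fatty acid genes was not tested.

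By position the 72 genes were spread over all chromosomes, with 14 on I, 11 on II, 11 on III, 10 on IV, 17 on V and 9 on X. The genome build of the files is not given in the sources used here, and the coordinates are those of the files. All 72 identifiers were found in the WBcel235 annotation at overlapping positions, 21 of them with the same start and end. In that annotation 21 members share exon bases with another gene, 16 of them with a protein-coding gene, among them lbp-6 with mec-6 (35 bases) and acox-1.4 with F08A8.8 (35 bases), both on opposite strands.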

How the data were processed

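Libraries were made with a NEBNext Ultra RNA kit and sequenced as 150 bp paired-end reads. The submitters' processing notes name HISAT2 2.05, StringTie 1.33 and DESeq2 without giving their roles. The read counter, genome build, annotation and the way samples became a single column are not given in the sources used here. The deposited signal values are gene counts that the authors scaled by a single factor per column. They were whole multiples of a single step per column, and whole reads were recovered for 99.97% to 99.98% of values above 0 (tolerance 0.1 reads). The authors' own comparison columns (log2 fold changes, p-values and adjusted p-values) are deposited too and were not used. Gene lengths are the authors'. The members and lists were chosen with earlier results of these data known. Values in all libraries are given for members past 2-fold, the highest member per length of each family, and acdh-1, acs-2, cpt-1, lbp-8 and acox-1.1. Recovered reads gave Clopper-Pearson intervals (scipy 1.17.1) and an alternative exact test in edgeR 4.0.16 with an assumed coefficient of variation of 0.2 or 0.4. The median-of-ratios alternative used size factors from DESeq2 1.42.0. Other alternatives changed the minimum, the scaling, the added count and the fold. The calling steps were tested on simulated data with counting error only. Variation between cultures was not simulated, so that run says nothing about it.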

Additional observations from a re-analysis of the deposited data

Results flagged for a closer look

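In 18 members the log2 fold change had opposite signs at 8 h and 24 h, with both counting intervals clear of 0. All 18 were among the 67 members tested at both times (26.9%), of which 39 had both intervals clear of 0. Over all 12638 genes tested at both times, 3841 had both intervals clear of 0 and 1398 of these (11.1% of all) had opposite signs, 7.86% lower and then higher and 3.20% higher and then lower. A larger part of the members than of all genes had both intervals clear of 0, so the 26.9% and 11.1% are not on the same footing. The difference between the times was not tested, since each strain and time has a single value. In 14 of the 18 members GMC101 was lower at 8 h and higher at 24 h. The value at 24 h minus that at 8 h was 3.79 for acox-1.3, 1.60 for lbp-6, 1.42 for ech-6, 1.08 for acs-1 and 1.08 for cpt-4. It was 0.93 for acdh-9, 0.92 for far-2, 0.90 for far-1, 0.82 for acdh-3, 0.51 for acs-5, 0.48 for acdh-11, 0.45 for acdh-12, 0.42 for lbp-2 and 0.40 for ech-4. In the other 4 GMC101 was higher at 8 h and lower at 24 h, with −4.63 for ech-9, −1.08 for acox-1.5, −0.98 for acox-1.6 and −0.67 for lbp-3. Of these genes, ech-9 alone was past 2-fold at both times, and lbp-2 (0.09) and lbp-3 (−0.14) were close to 0 at 24 h. Signs and intervals are those of the values as deposited, and the count was not redone under the other scalings. With total-count scaling lbp-2 lay below 0 at 24 h, and it need not be the only member affected. Other bounds close to 0 included the upper bounds of acdh-3 (−0.017) and ech-4 (−0.022) at 8 h and the lower bound of acdh-9 (0.11) at 24 h.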

How the results depend on the processing

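At 8 h, dropping the minimum gave 2 members higher and 2 lower (7.16% and 9.79% of all genes), and a 1.5-fold difference gave 2 and 7 of 67 (5.43% and 7.92% of all genes). acs-3 left the lower members, making 0, when the counting interval had to lie beyond 2-fold and with edgeR's exact test at an assumed coefficient of variation of 0.2, and at 0.4 the counts were 0 higher and 0 lower. At 24 h, a 1.5-fold difference gave 21 higher and 10 lower of 70 (14.7% and 20.7% of all genes), and the exact test at 0.4 left acdh-1 as 1 higher and 0 lower. The member median at 24 h moved to −0.035 with total-count scaling, where the median of all genes was −0.18. At 0.2 the exact test left 12 and 2 members at 24 h. Over all genes tested it called 36 higher and 104 lower at 8 h and 764 and 871 at 24 h at 0.2, against 7 and 9 and then 43 and 7 at 0.4. All genes past 2-fold numbered 1151 higher and 1588 lower at 24 h as deposited, and 912 and 2156 with total-count scaling. Of 132 recomputed values of named members, 130 were counted as keeping their call, and both exceptions were cpt-3. The 132 include values under the minimum level, which have no call and were counted as kept. Among them lbp-8 at 8 h went from 1.45 to 0.89 with 5 normalized counts added, and so crossed the 2-fold line. No paired analysis was possible because the columns carry no replicate numbers, and no replicate could be left out. With 1 value per strain and time, differences in genes of under about 20 normalized counts are limited by depth.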
